A study of Mus musculus with 12 samples.

Results

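The subunit genes of the NMDA receptor were followed through 12 RNA-seq libraries of mouse hippocampus. The 6 genes, Grin1, Grin2a, Grin2b, Grin2c, Grin2d and Grin3a, were chosen by name and matched to their NCBI gene IDs (14810, 14811, 14812, 14813, 14814 and 242443). They are 6 of the 27179 gene IDs counted, and all 6 passed the filter on low counts in every comparison below. Grin3b, the remaining gene of the family, is given beside them.

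The study asked what the chromatin reader BRPF1 does in hippocampal neurons and in CA1, the hippocampal field whose pyramidal cells send the main output of the hippocampus. All animals were wild-type C57BL/6 mice, so every group carried an intact Brpf1 gene, and an adeno-associated virus (AAV2) with GFP delivered either a scramble sequence or a short hairpin RNA against Brpf1 (shBrpf1). Primary hippocampal neurons were infected at 3 days in vitro (DIV), and 3 libraries were made with each virus. The methods place experiments on these cultures at the end of the second week in vitro, or 1 day later. The labels put the embryos at embryonic day 18 to 19 in one field and at an earlier day in another. CA1 was injected at 4 weeks and collected at 8 weeks of age, again with 3 libraries for each virus. The labels place the scramble and the shBrpf1 virus in the left and right CA1, so side and virus cannot be told apart, and they do not say whether both sides came from the same mice. Neither culture nor tissue was sorted for GFP as far as the sources say, so infected and uninfected cells were sequenced together. Nothing in the labels says that CA1 libraries of a group came from separate mice, and p-values then measure only the spread between these libraries.

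NMDA receptors are glutamate-gated channels that let calcium into the postsynaptic cell and are needed for several forms of synaptic plasticity. Each receptor combines the obligatory GluN1 subunit, encoded by Grin1, which binds glycine or D-serine, with GluN2 subunits (Grin2a to Grin2d), which bind glutamate, or with GluN3 subunits (Grin3a and Grin3b), which lower calcium entry. In the rodent forebrain GluN2B is the prevailing GluN2 subunit before and around birth, and GluN2A joins it as synapses mature, which is why the ratio of Grin2a to Grin2b is often followed.

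The sequence used for the knockdown and the primers the study lists for Grin2a and Grin2b are shown first. The counts below are for whole genes and not for these stretches. The shBrpf1 sense strand is given 5′ to 3′, with the 19 bases that match Brpf1 in exon 7 in capitals (GENCODE M21, GRCm38, forward strand of chr6:113318477-113318495). The bases in small letters were not compared with Brpf1.
shBrpf1: GGCTTACCGCTACTTGAACtt
Compared with the same 19 bases on the sense strand, the best site in a Grin transcript had 6 mismatches, in Grin2a, and those of the other 5 genes had 7 or 8. The RT-qPCR primers lie in exon 3 of Grin2a and in exon 3 of Grin2b, in the coding part, and neither pair matched another member.
Grin2a forward: acgtgacagaacgcgaactt
Grin2a reverse: tcagtgcggttcatcaataacg
Grin2b forward: gccatgaacgagactgaccc
Grin2b reverse: gcttcctggtccgtgtcatc
On GRCm38 the Grin2a primers read from the reverse strand at chr16:9992381-9992400 and chr16:9992301-9992322 and span 100 bases, and the Grin2b primers lie at chr6:136044069-136044088 and chr6:136043982-136044001 and span 107 bases.

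Related genes can exchange reads where their transcripts are identical, so the coding sequences were compared. Over the 15 pairs of members the longest shared stretch ranged from 12 bases to the 34 bases shared by Grin2b and Grin2c. How the authors' counting treated reads that align to several places is not given in the sources used here.

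All 6 genes lie on the reverse strand (GENCODE M21, GRCm38). Grin1 is at chr2:25291181-25319187 with 21 exons in its longest transcript, and Grin3a at chr4:49661611-49845744 with 9. Of the GluN2 genes, Grin2a is at chr16:9567898-9995560 with 14 exons, Grin2b at chr6:135713233-136173511 with 14, Grin2c at chr11:115249169-115267243 with 15 and Grin2d at chr7:45831883-45878378 with 12. The tables give 1 count for each gene, with no split by exon or isoform.

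Transcripts of the 6 genes differ more in their untranslated ends than in their coding part. In the longest annotated transcript the coding length was 2880 bases for Grin1, 4395 for Grin2a, 4449 for Grin2b, 3720 for Grin2c, 3972 for Grin2d and 3408 for Grin3a. The 3′ untranslated region was 402 bases long in Grin2c, 897 in Grin2d and 1187 in Grin1, against 3615 in Grin3a, 9929 in Grin2a and 18865 in Grin2b. The gene lengths deposited with the counts were close to the longest transcript for Grin1 (4230 against 4276 bases), the same for Grin2c (4895) and 1048 bases shorter for Grin2d. They fell short of it by 4143 bases in Grin3a, 10122 in Grin2a and 16545 in Grin2b. A length taken from these tables therefore covers little more than the coding part of Grin2a.

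Total counts per library ranged from 18330618 to 30275304. The members drew from 78 counts (Grin2c, neurons labelled shBrpf1, replicate 3) to 11765 counts (Grin1, neurons labelled shBrpf1, replicate 1). One label field calls the material of all 12 samples neural progenitor cells, so the material was checked on marker lists. The 8 progenitor and cell cycle markers summed to 213 to 901 CPM in culture and 78.2 to 103 CPM in CA1, below the pan-neuronal markers of the same libraries. The neuron cultures held 2616 to 7101 CPM (counts scaled to library size) of 13 pan-neuronal genes and 4823 to 9445 CPM of 11 astrocyte genes, so markers of both cell types were present. Oligodendrocyte markers summed to 73.5 to 1026 CPM in culture and to 5403 to 12276 CPM in CA1 tissue. Of the 9 CA1 pyramidal markers, 6 were higher and 2 lower in CA1 than in cultured neurons of the scramble group, and dentate granule cell markers were also present in CA1 tissue at 301 to 403 CPM. In bulk samples, fewer cells of a type and less RNA per cell cannot be told apart.

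Brpf1 itself (gene ID 78783, forward strand of chromosome 6) was at 23.4, 52.8 and 38.5 CPM in scramble neurons and at 27.1, 49.6 and 32.4 CPM in neurons labelled shBrpf1, replicates 1 to 3. The ranges overlapped, and the first replicate number was higher with shBrpf1, so the culture libraries did not show a lower Brpf1 mRNA (edgeR log2 fold change -0.06, SE 0.36). A separate exact two-sided permutation test on log2 CPM had a difference of -0.043 (p = 0.9, n = 3 and 3, where 0.1 is the smallest p possible). In CA1 it was at 40.4, 46.4 and 36.0 CPM with scramble and at 28.0, 37.3 and 28.5 CPM with shBrpf1. Here the edgeR log2 fold change was -0.38 (SE 0.18), with the shBrpf1 library lower within each replicate number and the ranges still overlapping. The separate permutation test on log2 CPM had a difference of -0.39 (exact permutation p = 0.2, n = 3 and 3). By RT-qPCR the paper reports lower Brpf1 mRNA with shBrpf1, both in culture and in the injected hippocampus. It does not say whether those samples were the ones sequenced. The groups are called by their labels throughout.

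Per kilobase of deposited length, Grin1 had the highest level in every library. Its mean was 50.8 ± 28.8 CPM per kb in scramble neurons and 102 ± 11.3 CPM per kb in scramble CA1 (SD, n = 3 each). In scramble neurons Grin2b (11.8 ± 6.88 CPM per kb), Grin3a (10.1 ± 9.45), Grin2a (4.15 ± 2.47), Grin2d (2.75 ± 1.89) and Grin2c (2.08 ± 0.973) followed, and each of these neighbours overlapped with the next. In scramble CA1 Grin2c came second at 14.7 ± 1.19 CPM per kb, apart from Grin1 above it and from Grin2a below it. Grin2a (6.81 ± 6.05), Grin2b (4.15 ± 3.09), Grin2d (3.60 ± 0.192) and Grin3a (2.21 ± 1.25) overlapped with their neighbours in that order. Had the longest transcript been used as length, Grin2a would be last in scramble neurons (1.28 ± 0.762 CPM per kb) and Grin2d next after Grin2c in scramble CA1 (2.91 ± 0.155), so the order below Grin1 depends on the length taken.

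**Figure D1:**
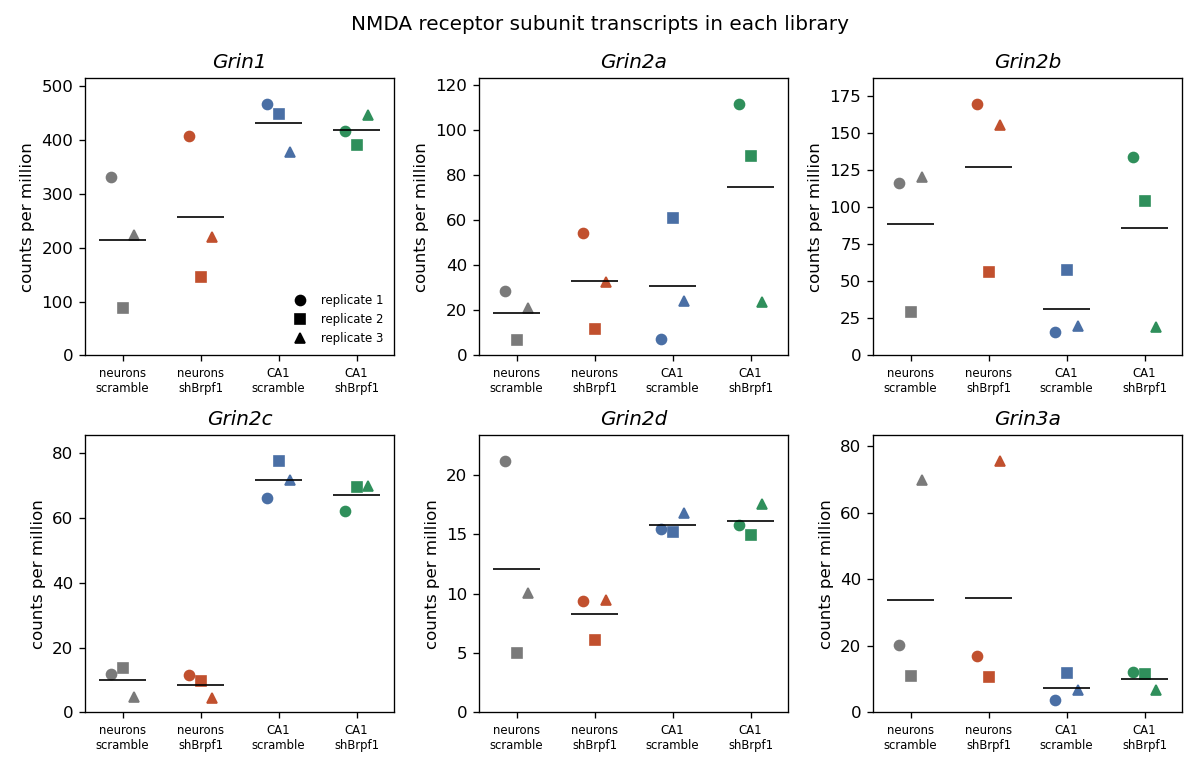
CPM (y axis, from 0, a separate scale in each panel) of the 6 subunit genes in all 12 libraries, grouped by material and virus on the x axis. Points are single libraries, shapes mark the replicate number, and lines are group means; Grin2a and Grin2b spread widely in CA1 while Grin1, Grin2c and Grin2d stay close together there.

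The first comparison asked which subunit genes differ between cultured neurons and adult CA1 without the knockdown. Grin2c, which is best known from cerebellar granule cells and is also found in astrocytes and some interneurons, was higher in CA1. Grin2b and Grin3a had lower mean levels in CA1, with groups that overlapped. These 3 of 6 members passed the threshold the study used for its gene lists (an unadjusted p under 0.05 together with a log2 fold change whose size is 1 or more), as did 24.1% of the 16488 genes tested.

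In scramble neurons Grin2c was at 11.8, 13.9 and 4.79 CPM, and in scramble CA1 at 66.1, 77.8 and 71.9 CPM. All 3 CA1 libraries lay above all 3 neuron libraries, by a log2 fold change of 2.78 (SE 0.39; edgeR quasi-likelihood test with Benjamini-Hochberg adjustment, adjusted p = 0.0016). It was the single member with an adjusted p under 0.05, a mark that 21.7% of all genes reached, and it stayed past the threshold in all 16 alternatives run, at 2.48 to 3.08.

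Grin3a was at 20.4, 10.9 and 69.8 CPM in scramble neurons against 3.67, 11.9 and 6.61 CPM in scramble CA1. Neuron replicate 3 was far above the others, and CA1 replicate 2 lay above neuron replicate 2, so the groups overlapped. The log2 fold change was -2.19 (SE 0.70; edgeR adjusted p = 0.059), and it was no longer called without neuron scramble replicate 3 (-1.08) or without CA1 scramble replicate 1 (-1.84).

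Grin2b was at 116, 29.0 and 121 CPM in scramble neurons and at 15.9, 57.9 and 19.7 CPM in scramble CA1. Neuron replicate 2 was low and CA1 replicate 2 high, and these libraries crossed. The log2 fold change of -1.52 (SE 0.63; edgeR adjusted p = 0.13) lost its call in 10 of the 16 alternatives, where it ranged from -1.66 to -0.73.

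Grin1 was at 332, 88.9 and 224 CPM in scramble neurons and at 468, 449 and 377 CPM in scramble CA1. The groups did not overlap, but the log2 fold change of 0.99 (SE 0.43; edgeR adjusted p = 0.15) sat just inside the limit of 1, and 9 of the 16 alternatives put it past the threshold. Groups that did not overlap were seen in 2 of 6 members, Grin1 and Grin2c, and in 41.2% of all genes.

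Grin2a was at 28.7, 6.66 and 20.9 CPM in scramble neurons and at 7.43, 60.7 and 24.0 CPM in scramble CA1. The ranges overlapped and the log2 fold change was 0.70 (SE 0.73). Grin2d, the subunit typical of interneurons and of the embryonic brain, was at 21.2, 4.97 and 10.01 CPM in neurons and at 15.4, 15.2 and 16.8 CPM in CA1, a log2 fold change of 0.37 (SE 0.46). Neither passed the threshold. For Grin2d the highest value was 4.26 times the lowest over the 6 neuron libraries and 1.17 times in CA1, while for Grin2a it was 8.12 times in neurons and 15.02 times in CA1.

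Culture and tissue differ in age, in cell makeup, in the way the virus was given and in the experiment they belong to, and these cannot be told apart. Beside the Grin genes, the summed microglia markers were 12.3 to 39.7 CPM in scramble neurons and 224 to 451 CPM in scramble CA1, and the summed excitatory neuron markers 1506 to 2634 and 8157 to 9230 CPM. Oligodendrocyte precursor markers moved the other way, with 575 to 3275 CPM in scramble neurons and 430 to 450 CPM in scramble CA1. Their part in the Grin levels was not tested.

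**Figure D2:**
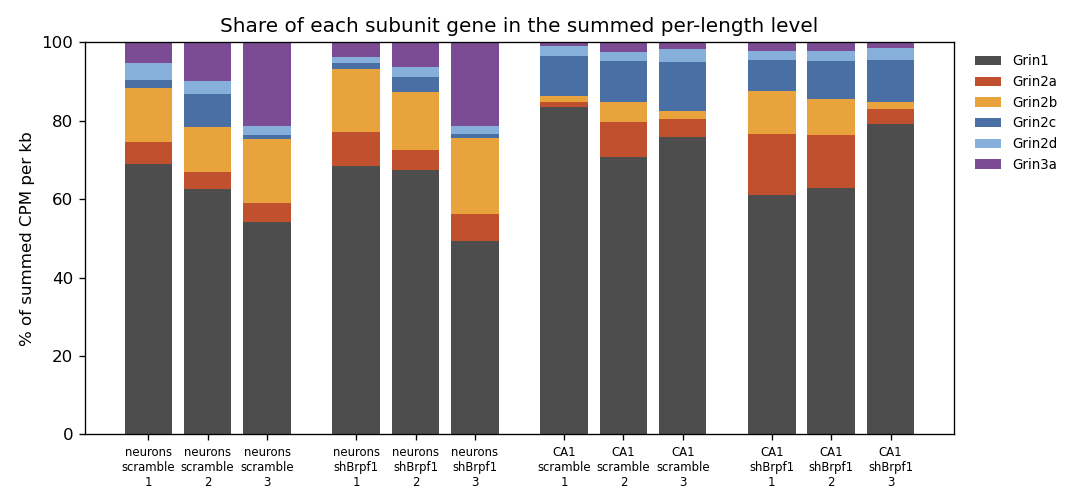
Share of each subunit gene in the summed CPM per kb of the 6 genes (y axis, percent of the sum, deposited lengths), 1 bar for each library. Grin1 makes up 49.3% to 83.5% of the sum, Grin3a stands out in replicate 3 of both neuron groups, and Grin2c is a larger share in CA1.

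Seen as shares of the summed per-kb level of the 6 genes, Grin2b made up 13.8 ± 2.48% in scramble neurons and 2.98 ± 1.88% in scramble CA1 (SD, n = 3 each). The share of Grin3a was 12.1 ± 8.25% and 1.63 ± 0.775%, and that of Grin2c 3.86 ± 4.01% and 11.1 ± 1.23%. The share of Grin2a was 4.90 ± 0.615% in neurons and 4.91 ± 3.87% in CA1. Shares of one sum move against each other, so they restate the levels and add no separate evidence. In CA1 with shBrpf1 the shares of Grin2a (3.91% to 15.4%) and of Grin2b (1.89% to 11.1%) overlapped with those of scramble CA1 (1.24% to 8.95% and 1.60% to 5.12%).

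The ratio of Grin2a to Grin2b per kb needs no scaling to library size. It was 0.411, 0.383 and 0.288 in scramble neurons and 0.531, 0.348 and 0.350 in neurons labelled shBrpf1. In scramble CA1 it was 0.778, 1.75 and 2.03, and in shBrpf1 CA1 1.39, 1.41 and 2.08. Every CA1 library lay above every neuron library, with the lowest CA1 value in scramble replicate 1.

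Between scramble CA1 and scramble neurons the log2 ratio differed by 1.98 (exact two-sided permutation test, p = 0.1, the smallest that 3 against 3 libraries allow). Taking both viruses together and permuting within each virus, a test added after seeing the data, gave the same difference of 1.98 and the smallest p that 400 relabellings allow (exact permutation p = 0.005). This test treats each library as independent, although same-numbered neuron libraries deviated together. Every CA1 library was already known to lie above every neuron library, so this p adds no separate evidence. The choice of length hardly bears on this ratio, since the length of Grin2b over that of Grin2a is 1.67 as deposited and 1.64 for the longest transcripts. As a share, Grin2a made up 22.4% to 34.7% of both genes per kb in the 6 neuron libraries and 43.8% to 67.5% in the 6 CA1 libraries.

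No difference in the ratio beyond the spread between libraries was seen between shBrpf1 and scramble. Within an experiment, 3 against 3 libraries allow no p under 0.1, and Brpf1 mRNA was not lower in neurons labelled shBrpf1. In neurons the log2 ratio was 0.17 higher with shBrpf1 (exact permutation p = 0.6), and in CA1 0.19 higher (exact permutation p = 0.8). The difference between the CA1 and the neuron contrast was 0.02 (exact permutation over 400 relabellings, p = 0.98). Means and SDs of the log2 ratio were -1.49 ± 0.27 and -1.32 ± 0.35 in neurons and 0.49 ± 0.74 and 0.67 ± 0.33 in CA1 (scramble and shBrpf1, n = 3 each). The sign of each contrast turned when 1 library was left out, neurons shBrpf1 replicate 1 (-0.030), CA1 scramble replicate 1 (-0.24) or CA1 shBrpf1 replicate 3 (-0.0019).

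**Figure D3:**
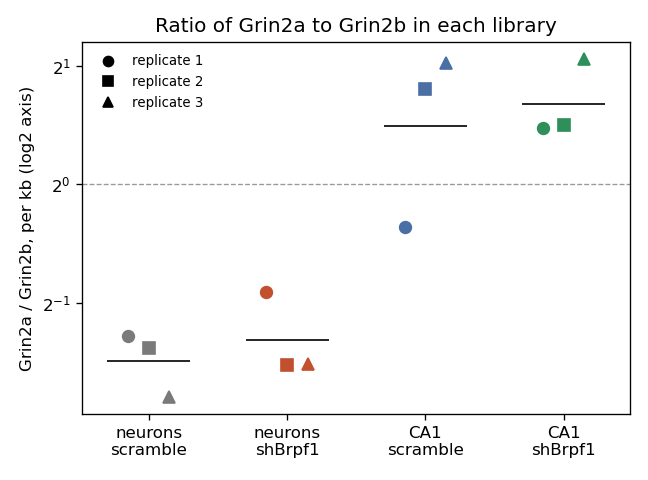
Grin2a to Grin2b ratio per kb (y axis, log2 scale) in each library by group. Shapes mark the replicate number, lines the mean of the log2 ratio and the dashed line a ratio of 1; the 6 neuron libraries lie between 0.288 and 0.531 and the 6 CA1 libraries between 0.778 and 2.08.

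In cultured neurons 0 of the 6 members passed the study's threshold between shBrpf1 and scramble, against 0.0560% of the 16066 genes tested (8 higher and 1 lower). Over all genes edgeR gave 12 with an unadjusted p under 0.05 and 0 with an adjusted p under 0.05, and the DESeq2 Wald test gave 23 and 0. No member had groups that did not overlap, against 1.61% of all genes.

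Grin2a was at 28.7, 6.66 and 20.9 CPM in scramble neurons and at 54.2, 11.8 and 32.6 CPM in neurons labelled shBrpf1. The second number was low with both viruses and the first high with both, so the groups overlapped, although shBrpf1 was above scramble within each number, by 1.89-, 1.76- and 1.56-fold. The log2 fold change was 0.82 (SE 0.67; edgeR adjusted p = 1.00). Leaving out shBrpf1 replicate 1 gave 0.23, leaving out scramble replicate 2 gave 0.41 and leaving out scramble replicate 1 gave 1.28, with no call.

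Grin2b was at 116, 29.0 and 121 CPM with scramble and at 170, 56.3 and 155 CPM with shBrpf1, again above its scramble library within each number, by 1.46-, 1.94- and 1.29-fold. Its log2 fold change was 0.53 (SE 0.61; edgeR adjusted p = 1.00), and leaving out 1 library moved it between 0.10 (without scramble replicate 2) and 0.88 (without shBrpf1 replicate 2). A higher value with shBrpf1 within all 3 numbers was seen in 2 of 6 members and in 14.2% of all genes.

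Libraries of the same number deviated together in the neuron cultures, and a fit with the replicate number as a block left less spread. With this replicate block the log2 fold change was 0.80 (SE 0.11) for Grin2a and 0.63 (SE 0.14) for Grin2b. An unadjusted p under 0.05 was reached by these 2 of 6 members and by 4.90% of all genes with the block. The adjusted p in edgeR was 0.85 for both, and a log2 fold change of at least 1 was not reached, so neither was called. After removing the trend with the longest transcript length from each library, together with the block, the log2 fold changes were 0.67 and 0.43, both again with an unadjusted p under 0.05, a choice made after seeing the data.

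Grin1 was at 332, 88.9 and 224 CPM in scramble neurons and at 407, 147 and 220 CPM with shBrpf1, with a log2 fold change of 0.27 (SE 0.56) and of 0.34 (SE 0.16) with the block. Numbers 1 and 2 were higher with shBrpf1 and number 3 was level, at 0.982-fold. Grin1os, an antisense gene inside Grin1, was at 4.33, 1.63 and 0.479 CPM with scramble and at 6.96, 3.71 and 0.515 CPM with shBrpf1. Because the sources used here do not say whether the counting used strand, reads of Grin1 and Grin1os cannot be told apart where they overlap.

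Grin2c and Grin3a differed more between replicate numbers than between viruses. Grin2c was at 11.8, 13.9 and 4.79 CPM with scramble and at 11.4, 9.74 and 4.47 CPM with shBrpf1 (log2 fold change -0.25, SE 0.52). Grin3a was at 20.4, 10.9 and 69.8 CPM with scramble and at 17.0, 10.6 and 75.6 CPM with shBrpf1 (log2 fold change 0.03, SE 0.90). Replicate 3 stood far above the other numbers in both groups for Grin3a and below them for Grin2c, a split by culture and not by virus.

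Grin2d was at 21.2, 4.97 and 10.01 CPM with scramble and at 9.35, 6.13 and 9.45 CPM with shBrpf1. Its log2 fold change of -0.54 (SE 0.53) rested on scramble replicate 1, and without that library it was 0.17. Grin3b, the second GluN3 gene, was hardly expressed, with 7 to 90 counts and 0.348 to 3.12 CPM in the 6 neuron libraries and no order by virus (log2 fold change 0.52, SE 0.87).

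Other cell type markers moved with the replicate numbers and in part with the virus. Within numbers 1, 2 and 3 the 13 pan-neuronal markers summed to 1.19, 1.45 and 0.979 times their scramble level, and the 11 astrocyte markers to 0.633, 0.816 and 1.04 times. Excitatory neuron markers summed to 1.64, 1.28 and 0.880 times, and CA2 and CA3 pyramidal markers to 2.13, 1.27 and 1.08 times. Interneuron markers were at 0.700, 1.49 and 0.952 times. With the block, 5 of 8 progenitor and cell cycle markers had a p under 0.05 and were lower with shBrpf1, and none was higher, where 4.90% of all genes had such a p in either direction. The part of the cell makeup in the Grin values was not tested.

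**Figure D4:**
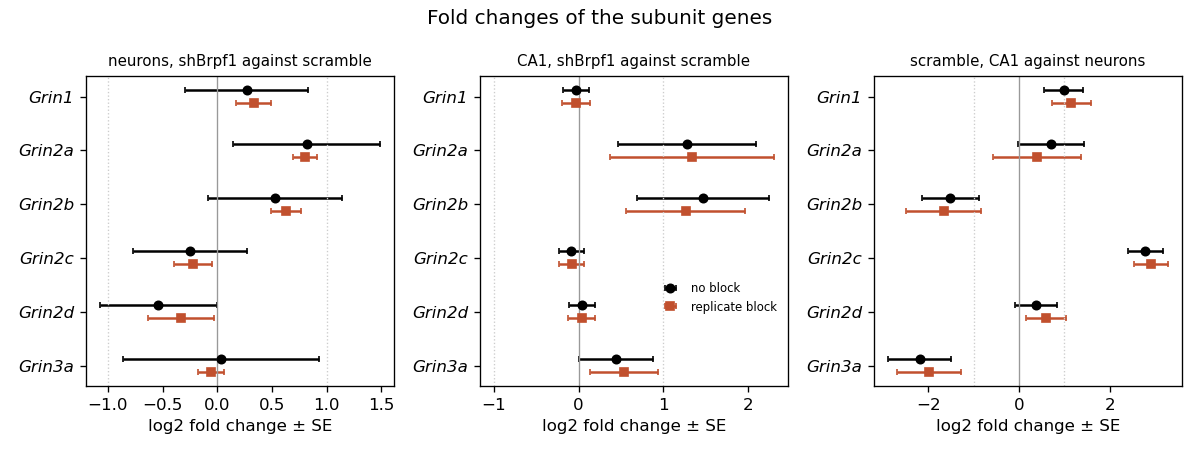
Log2 fold changes with their standard errors (x axis) of the 6 subunit genes from edgeR, without (black circles) and with (red squares) the replicate number as a block, in neurons, in CA1 and between scramble CA1 and scramble neurons. Dotted lines mark 1 and -1; in neurons the block narrows the errors of Grin2a (0.80, SE 0.11) and Grin2b (0.63, SE 0.14), while in CA1 the error goes from 0.81 to 0.97 for Grin2a and from 0.78 to 0.71 for Grin2b. Between CA1 and neurons the block joins cultures and tissues by number alone and pairs nothing.

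In CA1 tissue, too, 0 of the 6 members passed the study's threshold in edgeR, against 0.468% of the 16022 genes tested (53 higher and 22 lower). The paper took Grin2a from its own CA1 gene list, made with DESeq2, and reports it as significantly upregulated by RT-qPCR. The DESeq2 Wald test run here gave Grin2a a log2 fold change of 1.29 and no call. No adjusted p under 0.05 was found in edgeR for any gene, while 184 genes had an unadjusted p under 0.05 and the DESeq2 Wald test gave 3 genes with an adjusted p under 0.05. None of the members had groups that did not overlap, against 5.35% of all genes.

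Grin2a was at 7.43, 60.7 and 24.0 CPM in scramble CA1 and at 112, 88.4 and 23.6 CPM in shBrpf1 CA1. Replicates 1 and 2 of shBrpf1 were the highest, followed by scramble replicate 2, and replicate 3 of both viruses was alike, with scramble replicate 1 the lowest of all. The log2 fold change was 1.28 (SE 0.81; edgeR adjusted p = 0.93). Leaving out scramble replicate 2 gave 2.27, leaving out scramble replicate 1 gave 0.83 and leaving out shBrpf1 replicate 1 gave 0.85, none of them called.

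Grin2b was at 15.9, 57.9 and 19.7 CPM with scramble and at 134, 104 and 19.0 CPM with shBrpf1. The 6 libraries fell in the same order as for Grin2a, with the groups overlapping. The log2 fold change was 1.47 (SE 0.78; edgeR adjusted p = 0.93). It was 2.30 without scramble replicate 2 and 0.97 without shBrpf1 replicate 1. It passed the threshold when shBrpf1 replicate 3 was left out (1.95) and in none of the other 18 alternatives.

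Grin3a was at 3.67, 11.9 and 6.61 CPM with scramble and at 12.1, 11.4 and 6.61 CPM with shBrpf1. Scramble replicate 2 and shBrpf1 replicates 1 and 2 were again the higher libraries and lay close together (log2 fold change 0.44, SE 0.43; edgeR adjusted p = 0.93). Leaving out scramble replicate 2 gave 0.99, still short of the threshold.

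The other 3 genes varied little. Grin1 was at 468, 449 and 377 CPM with scramble and at 416, 392 and 448 CPM with shBrpf1 (log2 fold change -0.03, SE 0.16). Grin2c was at 66.1, 77.8 and 71.9 CPM and at 62.2, 69.7 and 69.9 CPM (log2 fold change -0.09, SE 0.14). Grin2d was at 15.4, 15.2 and 16.8 CPM and at 15.8, 14.9 and 17.5 CPM (log2 fold change 0.04, SE 0.15). The obligatory subunit therefore kept a narrow range, 377 to 468 CPM, in libraries where Grin2a ranged from 7.43 to 112 CPM.

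Grin3b was at 1.49 to 1.99 CPM with scramble and at 1.39 to 1.85 CPM with shBrpf1 in CA1. Grin1os was at 6.43, 16.2 and 7.08 CPM with scramble and at 6.54, 14.2 and 7.04 CPM with shBrpf1, with replicate 2 high under both viruses. Of the 10 annotated genes that overlap other members, 2 were matched in the tables. Kdelr1, which lies over the start of Grin2d on the opposite strand, had 45.0 to 66.6 CPM in CA1 and 60.5 to 92.5 CPM in neurons, above the level of Grin2d. Ppp3r2, inside Grin3a, had at most 16 counts in any library.

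Over the 6 CA1 libraries the highest CPM was 15.02 times the lowest for Grin2a, 8.42 times for Grin2b and 3.29 times for Grin3a, against 1.24 for Grin1, 1.25 for Grin2c and 1.17 for Grin2d. The SD of log2 CPM was 1.44 for Grin2a, larger than in 99.6% of 17254 genes, and 1.34 for Grin2b, larger than in 99.5%. For Grin3a it was 0.64 (94.2%), and for Grin1, Grin2c and Grin2d it was 0.12, 0.11 and 0.09 (12.3%, 9.64% and 6.15%), with a median of 0.27 over all genes. In the 6 neuron libraries the SDs were closer to each other, from 0.66 for Grin2c to 1.25 for Grin3a.

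The 3 members that varied in CA1 are those whose deposited length falls furthest short of the longest annotated transcript. Values for other genes of that kind are given beside them. Of 17254 genes, 15370 had a GENCODE transcript to compare, and 62 had a shortfall over 8000 bases, Grin2a and Grin2b among them. In CA1 their median deviation from the 6-library mean (log2 CPM) was -0.66, 0.19 and -0.12 in scramble replicates 1 to 3 and 0.38, 0.41 and -0.13 in shBrpf1 replicates 1 to 3. The same 3 libraries as for Grin2a were above 0, with shBrpf1 replicate 2 ahead of replicate 1 where Grin2a had the opposite, and 12.9% of these genes were above their mean in scramble replicate 1 and 85.5% in shBrpf1 replicate 2. The median SD of log2 CPM over the CA1 libraries was 0.41 in these 62 genes, 0.48 in the 71 genes with a shortfall of 6000 to 8000 bases and 0.26 in the 5573 genes with none. Over the neuron libraries it was 0.34, 0.44 and 0.39 in the same classes, where the SDs of Grin2a and Grin2b were 1.05 and 0.98. The median difference between shBrpf1 and scramble CA1 was 0.37 in the first of these classes, 0.35 in the second and 0.03 in the last.

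**Figure D5:**
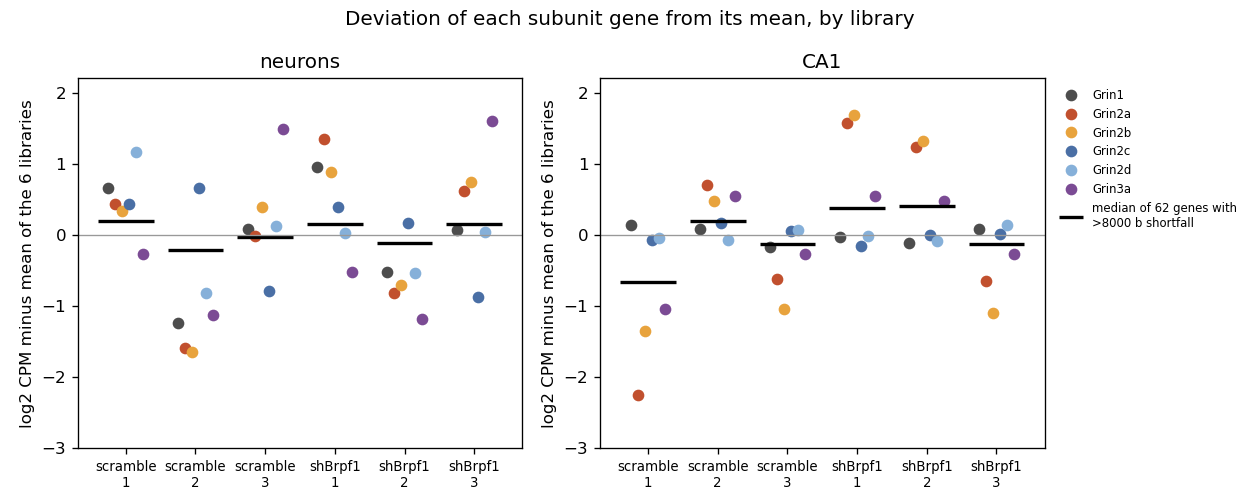
Deviation of each subunit gene from its mean over the 6 libraries of an experiment (y axis, log2 CPM) in each library (x axis), with a black line for the median of the 62 genes whose longest annotated transcript exceeds the deposited length by more than 8000 bases. In CA1 Grin2a, Grin2b and Grin3a move with the black line from library to library and the other 3 genes stay near 0.

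Across all genes the correlation of log10 deposited length with a library's deviation was -0.40, 0.25 and -0.14 in scramble CA1 and 0.30, 0.29 and -0.14 in shBrpf1 CA1, given as a description over 17254 genes that share these libraries. Removing each library's trend with the deposited length left the log2 fold changes of Grin2a and Grin2b in CA1 at 1.20 and 1.21. Removing the trend with the longest transcript length left 0.92 and 0.82, and removing the median of each of 8 shortfall classes left 0.94 and 1.02, both chosen after seeing the data. Neither gene passed the threshold in these 3 fits. Whether the length of the transcripts takes part in the spread of Grin2a and Grin2b was not tested.

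Cell type markers were set beside the same libraries. The 13 pan-neuronal markers summed to 5936, 6086 and 7856 CPM in scramble CA1 and to 7087, 5239 and 7430 CPM in shBrpf1 CA1, an order unlike that of Grin2a. The excitatory neuron markers were at 8157 to 9230 and at 6658 to 9508 CPM. Among the marker lists the widest range over CA1 libraries was that of choroid plexus and ependyma, with 5009, 63.8 and 1198 CPM with scramble and 47.6, 3272 and 226 CPM with shBrpf1. The part of these cells in the Grin values was not tested.

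The interaction of experiment and virus asked whether the contrast of shBrpf1 against scramble differed between CA1 and neurons. It passed the threshold for 0 of the 6 members, against 0.301% of 17254 genes. The CA1 contrast exceeded the neuron contrast by 0.46 (SE 1.12) for Grin2a and 0.94 (SE 1.05) for Grin2b on the log2 scale, and by -0.31 (SE 0.61) for Grin1. With standard errors of this size a difference of 1 log2 unit for Grin2a or Grin2b was not detectable.

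The genes that work with the receptor were taken from lists chosen with earlier results of these data known. Of 42 scaffold and signalling partners, 0 passed the threshold in neurons and 0 of the 39 tested did so in CA1, with a median log2 fold change of 0.21 and 0.14 against -0.0067 and 0.0054 over all genes. With the block in neurons, 6 of the 42 had a p under 0.05, all higher with shBrpf1, against 4.90% of all genes in either direction. The partners with the lowest p in neurons were Shank1, a scaffold of the postsynaptic density, with a log2 fold change of 0.42 (SE 0.31), the scaffold Lin7a with 0.55 (SE 0.44) and the kinase Camk2d with -0.42 (SE 0.37). In CA1 they were Ptpn5, a phosphatase that acts on GluN2B, at 129 ± 13.6 CPM with scramble and 99.5 ± 13.9 CPM with shBrpf1 (SD, n = 3 each, log2 fold change -0.37, SE 0.16), Homer2 with 0.69 (SE 0.30) and Lin7b with -0.37 (SE 0.18).

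Genes that supply the co-agonists or handle glutamate showed no call either, with 0 of 19 in neurons and 0 of 19 in CA1, and medians of -0.16 and -0.0071. Among those with the lowest p in neurons were the serine enzyme Psph (-0.33, SE 0.34) and the glycine transporter Slc6a9 (-0.22, SE 0.25). In CA1 they were the astrocyte glutamate transporter Slc1a2 (0.43, SE 0.24), the D-serine transporter Slc7a10 (-0.22, SE 0.17) and Gldc of glycine cleavage (0.18, SE 0.14).

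Among 21 transcription factors and reelin pathway genes linked to NMDA receptor expression, 0 were called in neurons and 0 of 20 in CA1, with medians of 0.04 and 0.32. Lowest in p were the reelin receptor Lrp8 (0.25, SE 0.22), Mef2c (-0.71, SE 0.63) and Neurod2 (0.37, SE 0.36) in neurons. In CA1 these were the reelin adaptor Dab1 (0.39, SE 0.17), the REST corepressor Rcor1 (0.78, SE 0.41) and Sp4 (0.55, SE 0.32). All of these are log2 fold changes of shBrpf1 over scramble from edgeR, and every adjusted p among them was at least 0.93.

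The genes whose pattern over the 12 libraries was most like each member's were ranked by Pearson correlation of log2 CPM, with each experiment centred on its own mean. Grin2a was closest to Fat3 (r = 0.987), Sorl1 (0.986) and Lrrc7 (0.983), and Grin2b to a gene ID without a name (0.975), Caln1 (0.970) and Add2 (0.967). Grin3a was closest to Kdm5b (0.991), Tnr (0.990) and Lpin2 (0.985), and Grin1 to Ptprn (0.991), Rgs7bp (0.985) and Sgtb (0.982). For Grin2d the nearest were Pde8b (0.973), Plk2 (0.969) and Me3 (0.967), and for Grin2c Tbca (0.973) and the gene models Gm21378 (0.970) and Cbx3-ps5 (0.968). Among the members, Grin2a and Grin2b were the most alike (r = 0.946) and Grin2c and Grin3a the least (r = -0.803). These are descriptions over 12 libraries that share batches and composition, and the highest values among all other genes are high by selection.

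Relative to Grin1, the summed per-kb level of the 4 Grin2 genes was 0.370 to 0.452 in scramble neurons and 0.389 to 0.595 with shBrpf1. In CA1 it was 0.188, 0.381 and 0.296 with scramble and 0.598, 0.552 and 0.246 with shBrpf1. The shBrpf1 replicates 1 and 2 were the highest and scramble replicate 1 the lowest, the order of Grin2a and Grin2b, and the groups overlapped.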

How the data were processed

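RNA-seq libraries from cultured hippocampal neurons and CA1 tissue were grouped by the labels. According to the methods, the authors trimmed the reads, used STAR with mouse release-98 for alignment and StringTie for counting. The labels give mm9 as build. The deposited tables hold whole-number counts per gene, with no normalization, and a gene length. Of 27179 IDs, 25275 were named by RefSeq (GRCm38.p6), and unnamed IDs hold 2.46% of counts. Transcripts and coordinates are from GENCODE M21 (GRCm38).

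A gene was kept with 10 or more counts in 3 or more of the libraries compared and tested with edgeR 4.0.16 (TMM, robust quasi-likelihood fit) in R 4.3.3, and p was adjusted over all tested genes (Benjamini-Hochberg). CPM were computed over all 12 libraries, and a pseudocount of 0.5 CPM was used for spread and correlation. The Grin2a to Grin2b ratio was tested by exact permutation. Interactions used a joint fit. Figures used matplotlib 3.10.9 in Python 3.11.15.

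The members, lists and tests were chosen with earlier results of these data known. Named genes were the members, Grin3b, genes overlapping a member, Brpf1, the 3 partners of lowest p per list and comparison, and the 3 most similar genes. One partner gene and one sequence comparison are not reported here. The study used DESeq2, with a design not given in the sources used here, and its threshold was kept. The paper speaks of pairs in both experiments without saying what pairs them. The main fits and ratio tests used no pairing. In neurons the same-numbered libraries, 3 batches according to the paper, deviated together (r = 0.58, 0.88 and 0.84 across genes), which the block allows for in the alternative fits. In CA1 they did not (-0.35, 0.19 and 0.35). Alternatives were DESeq2 1.42.0 size factors and Wald test, limma-voom (limma 3.58.1), no filter, a minimum of 50 counts, length trend removal, the replicate block, a joint fit and leaving out each library. The edgeR script was tested on simulated data.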

Additional observations from a re-analysis of the deposited data

How the results depend on the processing

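The calls depended less on the tool than on single libraries. With the replicate number as a block, the members called stayed at 0 in neurons, 0 in CA1, 0 in the interaction and 3 between CA1 and neurons, where Grin1 was gained and Grin2b lost. Between CA1 and neurons this block joins cultures and tissues of separate experiments by number alone and pairs nothing. It is counted among the alternatives for that comparison. Genes called in neurons went from 9 to 51 with the block, to 17 with the DESeq2 Wald test, 5 with limma-voom, 55 with no filter, 3 with a minimum of 50 counts and 81 in the joint fit. In CA1 they went from 75 to 151 with no filter and 24 with that minimum, and in the interaction from 52 to 163 with the block and 161 with no filter. Leaving out 1 library gave 1 to 94 called genes in neurons, 44 to 285 in CA1 and 37 to 247 in the interaction, so the shares of all genes set beside the members move with them. Pairing within numbers gave a ratio difference of 0.17 (exact p = 0.5) in neurons and 0.19 (exact p = 0.75) in CA1, where 0.25 is the smallest p. In CA1 the libraries share only a number, and the check for pairing is given with the processing.

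Leaving out each library in turn, 0 members were called in neurons, 0 to 1 in CA1 (Grin2b), 0 in the interaction and 1 to 4 between CA1 and neurons, with Grin2c alone left without neurons scramble replicate 3 or without CA1 scramble replicate 1. The log2 ratio of Grin2a to Grin2b ranged from -0.030 to 0.27 in neurons, -0.24 to 0.45 in CA1, -0.41 to 0.28 in the interaction and 1.71 to 2.40 between CA1 and neurons. With libraries of both viruses, added after seeing the data, it was 1.98 (exact permutation p = 0.005, with each library treated as independent).

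Log2 fold changes that changed sign were mostly close to 0. In neurons Grin3a was at -0.063 with limma-voom, -0.056 with the block, -0.047 with the block and the deposited length trend removed, -0.043 with the GENCODE length trend removed, -0.12 with that and the block, -0.012 with shortfall medians removed and -0.11 with these and the block. In CA1 Grin1 was at 0.0029 with the block and shortfall medians removed. Grin2d was there at -0.080 with the deposited length trend removed (-0.083 with the block) and at -0.13 with the GENCODE length trend removed, with and without the block. Leaving out single libraries gave -0.24 to 0.75 for Grin1, -0.60 to 0.065 for Grin2c, -0.92 to 0.17 for Grin2d and -1.26 to 1.099 for Grin3a in neurons. It gave -0.14 to 0.027 for Grin1 and -0.015 to 0.087 for Grin2d in CA1. In the interaction it gave -0.76 to 0.19 for Grin1, -0.15 to 0.48 for Grin2c, -0.12 to 0.94 for Grin2d and -0.70 to 1.72 for Grin3a. Between CA1 and neurons it gave -0.27 to 1.19 for Grin2a and -0.0053 to 1.08 for Grin2d. The cause was not tested.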
